A study of Mus musculus with 7 samples.

Results

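The genes described here are those of the insulin-like growth factor (IGF) system: the ligands Igf1 and Igf2, the receptors Igf1r and Igf2r, and the binding proteins Igfbp2, Igfbp3, Igfbp4, Igfbp5, Igfbp6 and Igfbp7. They were chosen by gene name, with earlier results of these data known. Every probe whose gene name in the array files is one of these 10 was taken. The 10 genes, of 37074 distinct names on the array, had 19 of its 56605 probes, of which 18 could be compared between genotypes, out of 34287 that could be compared in all. All 10 genes had at least 1 such probe, 6 of them had more than 1 probe and 4 had a single one.

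Expression was measured in whole mammary glands from 7 mice, 3 of them wild-type and 4 PRA transgenic, all nulliparous FVB females 20 to 25 weeks old and killed at diestrus, the progesterone-dominated stage of the estrous cycle. PRA is the A form of the progesterone receptor, and the transgenic animals were bigenic mice, in which a GAL-4 gene under the cytomegalovirus (CMV) promoter switches on a PR-A gene placed behind GAL-4 binding sites (UAS). That promoter is not specific to the mammary gland, and wild-type littermates were the controls. Each animal gave 1 abdominal gland, freed of its lymph nodes, and floating fat was left out of the RNA extraction. Gland RNA was labeled with Cy5 and hybridized, 1 animal per array, together with a Cy3-labeled reference (Universal Mouse Reference RNA, pooled from mouse cell lines), the same on every array and with no dye swap. A log2 ratio below therefore gives the gland level over that of the reference for the same probe, and it does not rank one gene against another.

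IGF-I is made largely in the liver in response to growth hormone, but also locally, in mammary stroma among other tissues, and together with IGF-II it signals for growth and survival through the IGF-I receptor, a tyrosine kinase that acts through insulin receptor substrates and the PI3K and Akt kinases. The IGF-II receptor, which is also the cation-independent mannose-6-phosphate receptor, takes up IGF-II for degradation. The binding proteins hold the ligands in blood and tissue and can restrain or prolong their action, and IGFBP5 is known in the mammary gland for its rise when the gland regresses after lactation.

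The probes matter here because several genes are read by probes that did not give the same difference between genotypes. The first 30 bases of the 60-base probes of the ligands and of Igfbp5 are shown, 5′ to 3′, because the separation of the genotypes for Igf2 and Igfbp5, and the sign of the difference for Igf1, was not the same for all probes of the gene. The sign also differed between probes for Igf1r, whose probes are described with its values. Capitals mark the hexamer AATAAA, the polyadenylation signal.
Igfbp5 A_52_P281702: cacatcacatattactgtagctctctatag
Igfbp5 A_66_P101782: tttagcattttggtacttaaggaAATAAAa
Igf2 A_51_P516833: gacagaaactcaaagagtaaattgttataa
Igf2 A_55_P2118173: atcaaattatgtggtaattctgcaatgtag
Igf1 A_51_P147942: cgcaggatcctttgctgcttgagcaacctg
Igf1 A_55_P2085979: aaccattaaaaacatgccaccaagaccttc
Igf1 A_52_P306327: taaaatagttgagtaaaatttgccactgat
The hexamer, searched over the whole 60 bases, was found as printed in 1 of the 19 probes of these genes, A_66_P101782 of Igfbp5, and in 9.77% of all probes on the array. On the opposite strand it was found in 1 of the 19, the probe of Igfbp7, and in 3.85% of all probes, and a match is a description of the letters only. A_66_P101782 was also the probe of lowest GC content among the 19, at 26.7%, while A_52_P281702 had 43.3% and the median over the array was 41.7%. By the positions in the files, on mm9, the Igfbp5 probes lie at chr1:72904829-72904888 and chr1:72904506-72904552 on the minus strand, and exons and introns are not given because no annotation of that build was used here.

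Over the 10 genes, each read by its brightest probe in Cy5, 5 were above the reference on all 7 arrays (Igf1, Igfbp3, Igfbp5, Igfbp6 and Igfbp7), 3 were below it on all 7 (Igf2, Igf1r and Igfbp2), and Igf2r and Igfbp4 were on either side. None differed between genotypes at an adjusted p under 0.05 by limma with Benjamini-Hochberg adjustment over all probes, where the lowest adjusted p of the 10 was 0.379, nor by the methods' t-test. Over all genes tested, each by its brightest probe, 0.00445% passed that threshold. At an unadjusted p under 0.05, 2 of the 10 passed (Igf2 and Igfbp5) by limma and 2 by the methods' t-test, against 7.95% of all genes by limma. With a 1.5-fold difference required as well, 1 of the 10 passed, Igfbp5, which was lower in PRA transgenic glands, against 4.05% of all genes in either direction, 1.51% higher and 2.54% lower. The genotypes did not overlap for the same 2 genes, Igf2 higher and Igfbp5 lower in PRA transgenic glands, against 9.09% of all genes, 4.59% higher and 4.5% lower. The log2 fold changes were positive for 5 of the 10 and negative for 5, with a median of -0.07, while over all genes 52.7% were positive and the median was 0.01. Under the alternatives with a test, 2 to 6 of the 10 were positive.

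**Figure D1:**
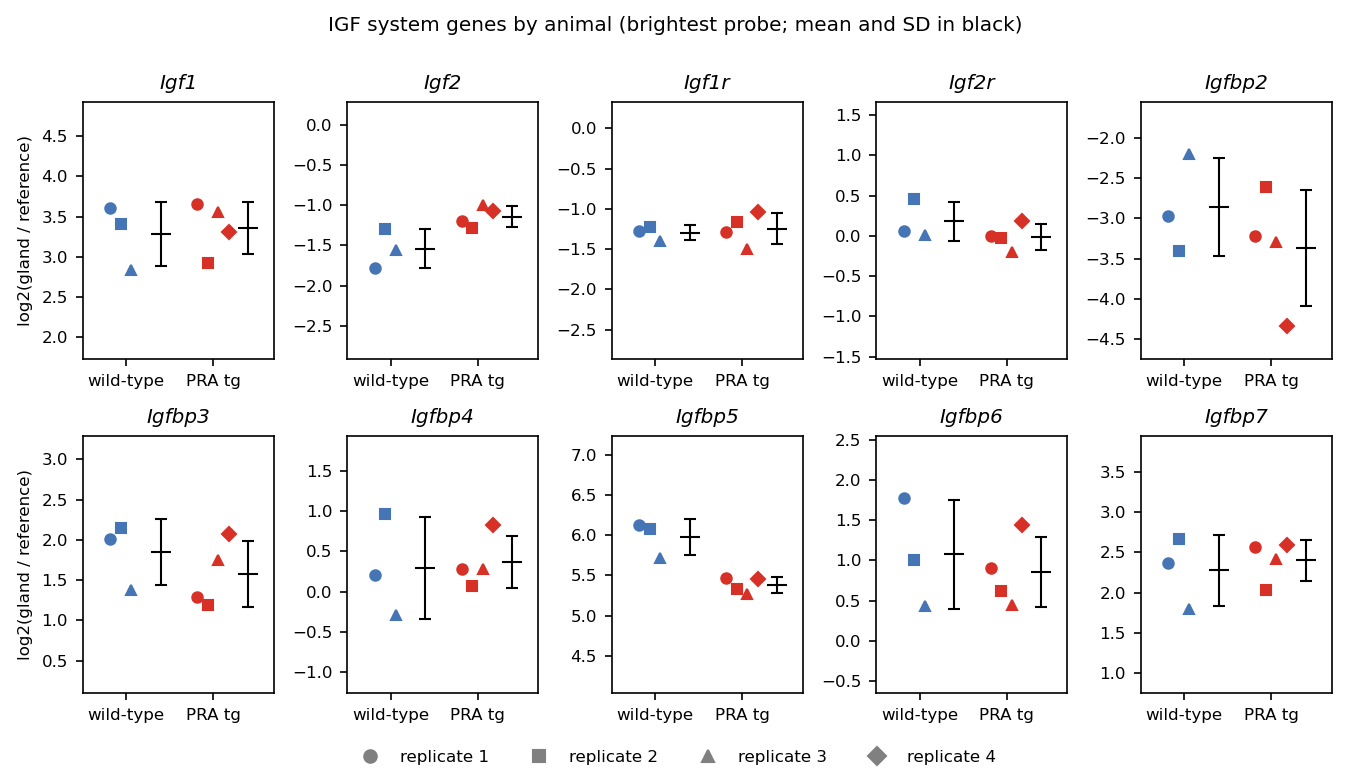
Log2 ratio of gland over reference for the brightest probe of each gene, 1 point per animal (blue, wild-type; red, PRA transgenic; symbol shape, replicate number), with the mean and SD in black. Each panel spans the same log2 distance, so the spread can be compared between panels: it runs from 0.45 for Igf1r to 2.14 for Igfbp2, and only Igf2 and Igfbp5 have genotypes that do not overlap.

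All 7 arrays lay on 1 slide, with wild-type in row 1 and PRA transgenic in row 2, so the row and the genotype cannot be told apart. The share of spots well above background was 64.3% to 67.7% in Cy5 on wild-type arrays and 58.6% to 62.0% on PRA transgenic arrays, and in Cy3, where the RNA was the same, 55.3% to 56.0% and 49.5% to 52.8%. The part of this shift in the results below was not tested, beyond giving each channel apart. Columns 1, 2 and 4 of the slide held an array of each genotype, and differences within these columns (PRA transgenic minus wild-type) are given beside the results. For Igf2 and Igfbp5 all 3 had the same sign, which follows from genotypes that do not overlap, and for the other 8 genes both signs occurred. The mice were separate animals, and precision is set by how few arrays there were.

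Among the ligands, Igf1 was well above the reference in every gland and did not separate the genotypes. Its brightest probe (A_51_P147942, chr10:87393516-87393575, plus strand) read 3.61, 3.41 and 2.84 in wild-type replicates 1 to 3 and 3.66, 2.92, 3.55 and 3.31 in PRA transgenic replicates 1 to 4. Wild-type replicate 3 was the lowest array and PRA transgenic replicate 1 the highest, and the ranges overlapped. The means, 3.29 ± 0.40 (SD, n = 3) and 3.36 ± 0.33 (SD, n = 4), correspond to 9.76-fold and 10.3-fold the reference. The difference was 0.08 on the log2 scale (SE 0.25, 95% interval -0.51 to 0.66, limma adjusted p = 0.962). That interval reaches past a 1.5-fold difference only on the higher side, so a difference of up to 1.58-fold higher was within it. Within slide columns 1, 2 and 4 it was 0.05, -0.49 and 0.47.

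The other probes of Igf1 did not read alike. A_55_P2085979 (chr10:87378456-87378515), placed on another RefSeq transcript of the gene 15 kb from the brightest probe, was near the reference, at 0.20 ± 0.17 (wild-type, SD, n = 3) and 0.11 ± 0.16 (PRA transgenic, SD, n = 4), with a difference of -0.09 (SE 0.14, limma adjusted p = 0.903). A_52_P306327 (chr10:87325382-87325441), designed on a cDNA clone and lying a further 53.0 kb away, read 2.27, 2.61 and 1.40 in wild-type and 1.84, 0.29, 1.45 and 0.62 in PRA transgenic glands. Its difference of -1.04 (SE 0.45, limma adjusted p = 0.555) was the largest among the 18 probes in size, but the ranges overlapped. For that probe the reference was well above background on only 2 of 3 wild-type and 2 of 4 PRA transgenic arrays. Its Cy5 signal alone differed by -0.45, while its Cy3 signal, from the same RNA on every array, differed by 0.61 in the opposite direction and did not overlap between genotypes. Of the 18 probes 3 had Cy3 signals that did not overlap and 0 had such Cy5 signals, against 12.2% and 9.67% of all probes.

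Igf2, the fetal growth ligand from a locus that is imprinted in mice, was below the reference in every gland, with the PRA transgenic values nearer to it. The brightest probe (A_51_P516833, chr7:149837115-149837174, minus strand) read -1.78, -1.29 and -1.56 in wild-type and -1.20, -1.29, -1.0 and -1.08 in PRA transgenic glands. Wild-type replicate 2 and PRA transgenic replicate 2 were next to each other, so the gap between the genotypes was narrow. The reference exceeded the gland 2.92-fold in wild-type and 2.21-fold in PRA transgenic glands by the group means. The PRA transgenic mean was 1.32-fold that of wild-type, a log2 difference of 0.40 (SE 0.15, 95% interval 0.05 to 0.76, unadjusted p = 0.0321 and adjusted p = 0.506 by limma).

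In Cy5 alone, that is the gland signal scaled to the 75th percentile of its array, the difference of Igf2 was 0.33 (SE 0.15) and the genotypes overlapped, with Cy3 differing by -0.07. Within slide columns 1, 2 and 4 the differences in the ratio were 0.58, 0.00 and 0.48. The other Igf2 probe (A_55_P2118173, chr7:149839661-149839720) had a difference of 0.19 (SE 0.31, limma adjusted p = 0.903) and genotypes that overlapped. Its wild-type SD was 0.71, against 0.24 for the brightest probe. H19, the noncoding RNA of the same imprinted locus, whose brightest probe lies 75.6 kb from that of Igf2, had a mean log2 ratio of -1.74 in wild-type and -1.81 in PRA transgenic glands (difference -0.07, SE 0.27, limma adjusted p = 0.967).

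The genes whose brightest probe followed each ligand most closely over the 7 arrays were named by Pearson's r among 22452 genes, as a description. For Igf1 these were Chml (r = 0.984), Gstk1 (r = 0.982) and Derl2 (r = 0.981), and for Igf2 they were BC026600 (r = 0.987), Gm14409 (r = 0.985) and Gm14322 (r = 0.983). With 7 arrays, all of them on 1 slide, and this many genes to choose from, values of this size are among the highest by choice.

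Neither receptor separated the genotypes. Igf1r was below the reference in every gland and, by its brightest probe, was the steadiest of the 10 genes. That probe read -1.27, -1.22 and -1.39 in wild-type and -1.29, -1.17, -1.49 and -1.04 in PRA transgenic glands (A_55_P2736764, chr7:75371371-75371430). The lowest and the highest array were both PRA transgenic, replicates 3 and 4. The difference was 0.05 (SE 0.14, 95% interval -0.28 to 0.38, limma adjusted p = 0.953), an interval that stays within 1.5-fold in both directions. Within the columns it was -0.01, 0.05 and 0.36. In Cy5 alone it was 0.19, and in Cy3, where the genotypes did not overlap for this probe, 0.15. Of the remaining 3 probes, A_51_P318365, from the same RefSeq transcript, gave -0.02 (SE 0.17), and A_55_P2804885 and A_52_P668647, both from cDNA clones, gave -0.24 (SE 0.39) and -0.43 (SE 0.29), none with an adjusted p under 0.05 by limma. The clone probes varied more, with ranges over the arrays of 1.73 and 1.14. Their 95% intervals were wider, -1.15 to 0.67 and -1.12 to 0.26.

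Igf2r, read by 1 probe (A_51_P125467, minus strand of chromosome 17), was close to the reference. It read 0.06, 0.46 and 0.01 in wild-type and -0.01, -0.03, -0.20 and 0.18 in PRA transgenic glands. Wild-type replicate 2 was the highest array, and PRA transgenic replicate 4 lay above the remaining wild-type arrays. The difference was -0.19 (SE 0.16, 95% interval -0.57 to 0.18, limma adjusted p = 0.769), so that here too the interval lies within 1.5-fold. Within the columns it was -0.07, -0.50 and 0.17.

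Of the binding proteins, Igfbp5 had the lowest p of the 10 genes. Its brightest probe (A_52_P281702) read 6.12, 6.08 and 5.71 in wild-type and 5.47, 5.32, 5.27 and 5.45 in PRA transgenic glands. All 3 wild-type arrays were above all 4 PRA transgenic arrays, and the PRA transgenic arrays lay close together. By the group means the gland exceeded the reference 62.7-fold in wild-type and 41.6-fold in PRA transgenic glands. The wild-type mean was 1.51-fold that of PRA transgenic glands, a log2 difference of -0.59 (SE 0.14, 95% interval -0.92 to -0.26, unadjusted p = 0.00385 and adjusted p = 0.379 by limma), just past the 1.5-fold line at 0.58. Within slide columns 1, 2 and 4 the differences were -0.65, -0.75 and -0.27. Leaving out wild-type replicate 1 or 2, or PRA transgenic replicate 2 or 3, gave -0.52, -0.54, -0.57 and -0.56, short of 1.5-fold.

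The values of Igfbp5 were not the same in each channel and by each probe, and whether the probes differed was not tested. In Cy5 alone the brightest probe read 5.72, 5.98 and 5.60 in wild-type and 5.14, 5.37, 5.10 and 6.0 in PRA transgenic glands. PRA transgenic replicate 4 was the highest of all 7 arrays while the other PRA transgenic arrays were below every wild-type one, and the difference was -0.36 (SE 0.24, unadjusted p = 0.181 by limma). That array was also the highest in Cy3, at 0.58, where the others ran from -0.39 to 0.06, and the Cy3 difference between genotypes was 0.24 (SE 0.22), although the reference RNA was the same.

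The other Igfbp5 probe, A_66_P101782, read 4.99, 5.44 and 4.93 in wild-type and 4.73, 5.01, 4.76 and 5.26 in PRA transgenic glands. Its genotypes overlapped, and its difference of -0.18 (SE 0.19, 95% interval -0.64 to 0.27, limma adjusted p = 0.827) ran the same way. In Cy5 alone it differed by -0.43, near the -0.36 of the brightest probe, while in Cy3 it differed by -0.24, opposite in sign to the 0.24 of the brightest probe. The reference was well above background on all 3 wild-type but only 2 of 4 PRA transgenic arrays for this probe, and on all 7 for the brightest one.

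**Figure D2:**
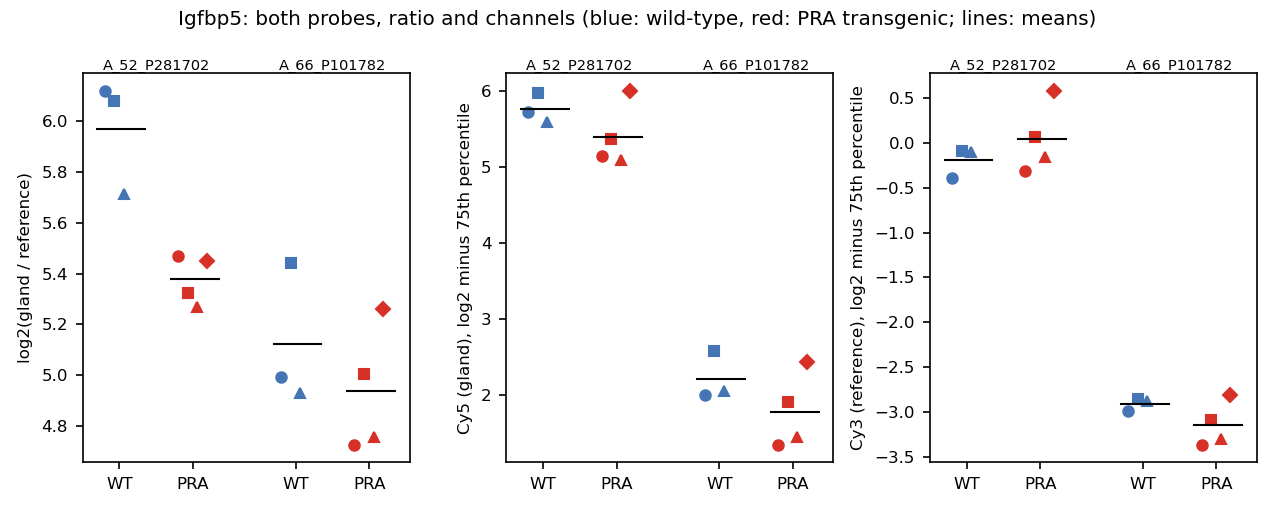
Igfbp5 by its 2 probes, 1 point per animal (blue, wild-type; red, PRA transgenic; shape, replicate number; black lines, means): the log2 ratio, and the Cy5 (gland) and Cy3 (reference) signals alone as log2 intensity minus the 75th percentile of the array. The genotypes separate only in the ratio of A_52_P281702, and PRA transgenic replicate 4 (diamond) is the highest PRA transgenic point in both channels of both probes.

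Igfbp2, which lies next to Igfbp5 on chromosome 1 with its probe 6.1 kb from the brightest probe of Igfbp5 and on the opposite strand, was the most variable of the 10 genes. It was below the reference in every gland, at -2.97, -3.41 and -2.20 in wild-type and -3.22, -2.61, -3.30 and -4.34 in PRA transgenic glands (A_55_P2056729, chr1:72898677-72898736). The highest array was wild-type replicate 3 and the lowest PRA transgenic replicate 4, and the rest were intermixed. The difference of -0.50 (SE 0.44, 95% interval -1.54 to 0.53, limma adjusted p = 0.785) was within the spread between animals. Within slide columns 1, 2 and 4 it was -0.25, 0.80 and -2.14, and over all columns it was -0.18 without PRA transgenic replicate 4 and likewise -0.18 without wild-type replicate 3.

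Igfbp3, the main carrier of IGF-I in blood, was above the reference in every gland. It read 2.01, 2.15 and 1.38 in wild-type and 1.29, 1.20, 1.75 and 2.07 in PRA transgenic glands (A_55_P2803213, chr11:7106193-7106252). The highest 3 arrays were wild-type replicates 1 and 2 and PRA transgenic replicate 4, and the difference was -0.27 (SE 0.28, 95% interval -0.92 to 0.39, limma adjusted p = 0.825). Within the columns it was -0.72, -0.95 and 0.70. In Cy5 alone it was -0.38, and in Cy3, where the genotypes did not overlap for this probe, -0.11. A further Igfbp3 probe, A_55_P1992715, was not well above background in either channel on any array and was not tested. Igfbp1, which neighbors Igfbp3 and is known as a liver gene, has a probe 3.7 kb from that of Igfbp3, and its Cy5 signal exceeded background clearly on 0 of 7 arrays, so it was not tested.

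Igfbp4 is a binding protein that is cleaved by the protease PAPP-A to free the ligand. By its brightest probe it was on either side of the reference. It read 0.20, 0.97 and -0.29 in wild-type and 0.28, 0.07, 0.29 and 0.83 in PRA transgenic glands (A_52_P257502, chr11:98913334-98913393). The highest and the lowest array were both wild-type. The difference was 0.07 (SE 0.32, limma adjusted p = 0.974), and within the columns 0.07, -0.89 and 1.11. By the other Igfbp4 probe, A_51_P398971, it was 0.27 (SE 0.23, limma adjusted p = 0.773). That other probe was above the reference on every array, at 0.47 to 1.37.

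Igfbp6, which binds IGF-II in preference to IGF-I, read 1.77, 1.01 and 0.44 in wild-type and 0.90, 0.62, 0.45 and 1.44 in PRA transgenic glands (A_66_P139546, chr15:101979852-101979911). Wild-type replicate 1 was the highest array, and the difference of -0.22 (SE 0.36, limma adjusted p = 0.902) turned to 0.13 without it. Within the columns it was -0.87, -0.39 and 1.01. Igfbp7, a protein of vessel walls and matrix that binds IGFs weakly, read 2.36, 2.67 and 1.80 in wild-type and 2.56, 2.03, 2.42 and 2.59 in PRA transgenic glands (A_51_P472292, chr5:77778355-77778414). Wild-type replicate 3 was the lowest array, and the difference of 0.12 (SE 0.24, limma adjusted p = 0.923) turned to -0.12 without it. Within the columns it was 0.20, -0.63 and 0.79.

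**Figure D3:**
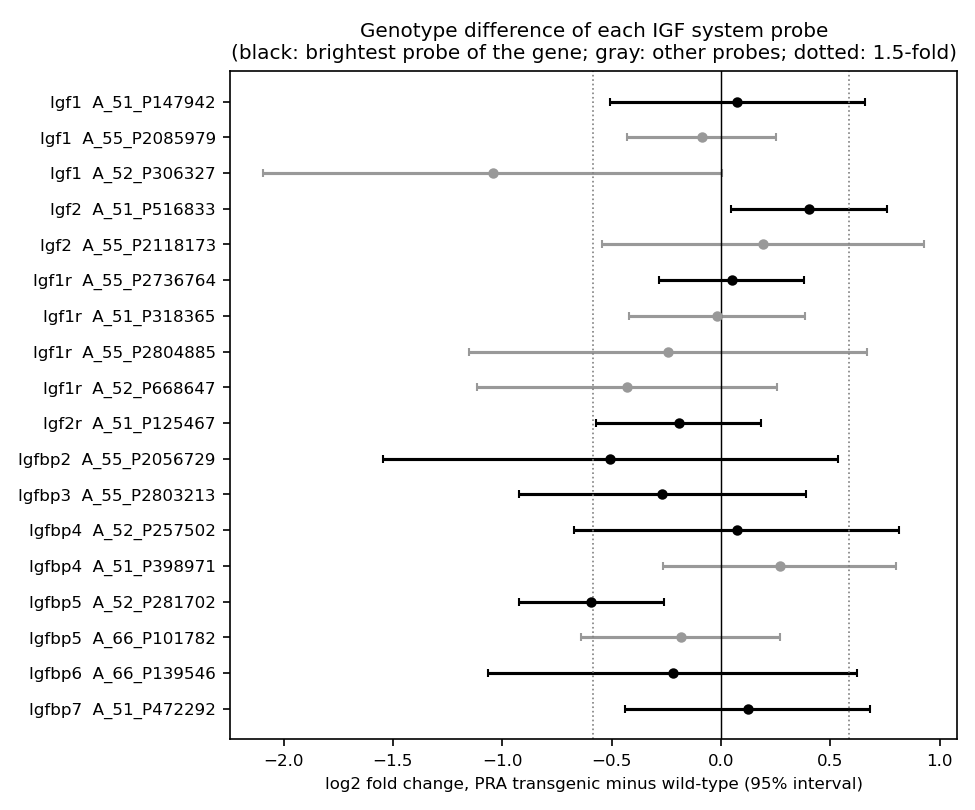
Log2 fold change, PRA transgenic minus wild-type, of each of the 18 tested probes with its 95% interval from limma (black, brightest probe of the gene; gray, other probes; dotted lines, 1.5-fold). The intervals of the brightest Igf2 and Igfbp5 probes are the ones that leave out 0, and the second probe of each of these genes has an interval that includes it.

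Of 55 other genes of the pathway, in 5 lists, 51 could be tested and none differed at an adjusted p under 0.05 by limma or had genotypes that did not overlap, against 9.09% of all genes for the latter. Of the 51, 25 had a positive and 26 a negative log2 fold change, with a median of -0.01. Among them 1 gene, Pik3r1, passed an unadjusted p under 0.05 with a 1.5-fold difference, against 4.05% of all genes. Pik3r1, which encodes the p85 regulatory subunit of PI3K, read 0.64, 1.28 and 0.23 in wild-type and 1.66, 1.12, 1.58 and 1.90 in PRA transgenic glands. Only wild-type replicate 2 and PRA transgenic replicate 2 were out of order, and the difference was 0.85 (SE 0.29, 95% interval 0.18 to 1.52, limma adjusted p = 0.463).

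The list drawn up for IGF availability, 8 tested of 10 genes, had 4 positive and 4 negative differences and a median of -0.01. These differences ran from -1.30 (SE 0.62) to 0.70 (SE 0.58). Igfals, the acid-labile subunit that keeps IGF and IGFBP3 in the circulating complex, differed by -0.02 (SE 0.28, limma adjusted p = 0.993). Pappa, the protease that cleaves IGFBP4, differed by 0.34 (SE 0.64, limma adjusted p = 0.919), with readings of 1.85, -1.23 and -0.07 in wild-type against 0.45 to 0.64 in PRA transgenic glands. Its wild-type arrays thus lay on both sides of the PRA transgenic ones.

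The insulin receptor and its adaptors, 9 tested of 10, had 5 positive and 4 negative differences and a median of 0.06. Insr, the insulin receptor, differed by 0.35 (SE 0.36) by its brightest probe and by -0.26 by the other. Irs1 and Irs2, the main docking proteins of both receptors, differed by 0.06 (SE 0.31) and -0.38 (SE 0.27). In the growth hormone axis, all 7 tested, 3 differences were positive and 4 negative with a median of -0.13, and Ghr, the growth hormone receptor, differed by -0.45 (SE 0.39) by its brightest probe and by -0.07 to 0.39 by the others. The 22 genes of the PI3K, Akt, mTOR and FoxO list split 11 to 11 with a median of 0.01, and the 5 tested of 6 genes of the Igf2 locus and of Igf2 mRNA binding split 2 to 3 with a median of -0.07.

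The glands were whole tissue, so fewer cells of a type and less RNA per cell cannot be told apart. Marker genes of luminal and basal epithelium, the cells that define the gland, had mean log2 ratios of 2.50 to 3.52 and 2.62 to 3.03 in wild-type and of 2.52 to 3.31 and 2.91 to 3.07 in PRA transgenic glands, and no list of cell type markers separated the genotypes in its mean. Igf1 and some binding proteins shared their lowest or highest arrays with such lists. For 8 white adipocyte markers the list mean was 5.35, 5.50 and 5.19 in wild-type and 5.86, 5.26, 5.46 and 5.50 in PRA transgenic glands, lowest on wild-type replicate 3 and PRA transgenic replicate 2, the arrays on which Igf1 and Igfbp7 were lowest too. The fibroblast markers were lowest on the same pair of arrays. The basal epithelium markers were highest there, at 3.03 and 3.07, as were the proliferation markers, at -1.85 and -2.43. For 8 fibroblast markers the list mean was 2.62, 2.52 and 2.13 in wild-type and 2.21, 2.19, 2.22 and 2.65 in PRA transgenic glands, highest on the same 3 arrays as Igfbp3 and Igfbp6. The mean of 6 macrophage markers was highest on these arrays too, at 3.04 and 3.03 on wild-type replicates 1 and 2 and 3.54 on PRA transgenic replicate 4, so the sharing is not with a single cell type.

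Other lists set single animals apart. For 11 tested skeletal muscle markers the list mean was 2.46, 0.17 and 3.47 in wild-type and 0.46, 0.33, 0.42 and 3.34 in PRA transgenic glands. The extremes of Igfbp2 fell on wild-type replicate 3 and PRA transgenic replicate 4, both high in these markers but opposite in Igfbp2. For 7 T cell markers the list mean was 2.05 on wild-type replicate 1 against -0.25 to 0.41 on the other 6 arrays, and for 4 tested B cell markers 0.76 against -1.62 to -0.78. Igfbp5 and Igfbp6 were highest, and Igf2 was lowest, on that array. Without wild-type replicate 1 the difference of Igf2 was 0.29 and that of Igfbp5 -0.52. With the skeletal muscle mean as a covariate all 10 differences kept their sign, among them Igfbp5 at -0.61, Igf2 at 0.37, Igfbp2 at -0.58 and Igfbp6 at -0.13 (limma adjusted p = 0.550, 0.725, 0.883 and 0.978). The part of the other marker lists in the values of these genes was not tested.

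**Figure D4:**
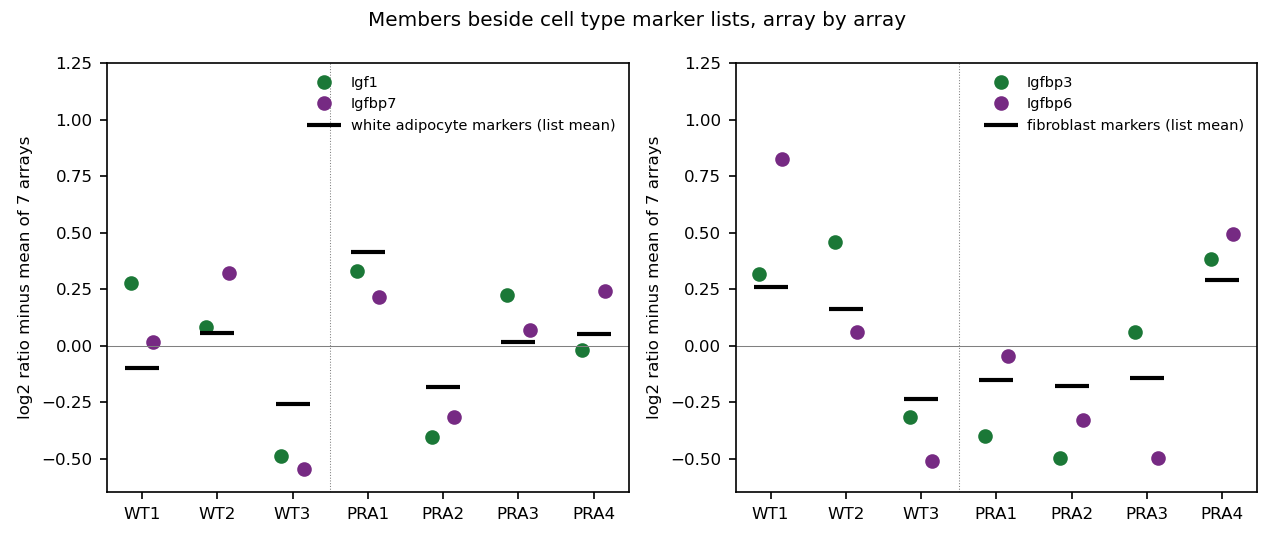
Log2 ratio of each array minus the mean of the 7 arrays, for Igf1 and Igfbp7 beside the mean of the white adipocyte markers (left) and for Igfbp3 and Igfbp6 beside the mean of the fibroblast markers (right), with genotypes divided by the dotted line. Igf1 and Igfbp7 share their lowest arrays, wild-type replicate 3 and PRA transgenic replicate 2, with the adipocyte markers and also with the fibroblast markers, and Igfbp3 and Igfbp6 share their 3 highest arrays with the fibroblast markers, as the macrophage markers, not drawn, do too. The pairs drawn were picked from all the genes and marker lists.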

How the data were processed

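The deposited array files were written by Agilent Feature Extraction (version 12.0 in the submitters' processing notes, 11.5.1.1 in the file headers) and hold processed intensity values, background-subtracted and dye-normalized within each array by that software, and their log10 ratio, as deposited. The authors also deposited a table of log2 ratios, set in GeneSpring GX to the median of all samples. From the processed intensities log2 of Cy5 over Cy3 was computed, replicate spots were averaged, and controls and flagged outliers were dropped. The deposited log2 table held the same values up to each probe's centre (100% within 0.01). A probe was kept if, in at least 1 genotype, its Cy5 exceeded background clearly (the software's flag) on every array. The genotypes were compared by limma 3.58.1 (lmFit, eBayes; R 4.3.3) with Benjamini-Hochberg adjustment over all 34287, with all 7 arrays, no covariate and no pseudocount. No spot was saturated, and arrays correlated at 0.876 to 0.937 with each other.

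A gene is read by its kept probe of highest mean log2 Cy5. The genes named are all members with every probe, 8 pathway genes whatever their values, pathway genes past an unadjusted p of 0.05 and 1.5-fold, and 3 genes most like each ligand. Members, lists and tests were chosen with earlier results of these data known. Groups come from the sample labels, and probe positions on mm9 from the files. Of the steps, only the limma fit was tested on simulated data. Alternatives were other background correction, normalization, filters, tests, weights, blocks, a muscle covariate, Cy5 alone, the authors' log2 table, the median over probes, and each array left out in turn.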

Additional observations from a re-analysis of the deposited data

Results flagged for a closer look

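In 2 of 30 sets of 4 PRA transgenic values examined, covering the 18 tested probes of these genes and the means of 12 marker lists, a single array stood apart, where chance gives about 1.5. In both it was PRA transgenic replicate 4. Its mean of skeletal muscle markers was 3.34 where the other PRA transgenic arrays had 0.33 to 0.46, a gap of 0.958 of the whole range. Its mean of fibroblast markers was 2.65 where the others had 2.19 to 2.22, a gap of 0.931 of the range. None of the 18 tested probes stood apart in this way, and the untested Igfbp3 probe, not well above background on any array, was not examined. This array had the lowest Igfbp2 of all 7 and the highest Igf1r.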

How the results depend on the processing

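The results were repeated under 20 alternatives, 19 planned and the slide column as a block, chosen after seeing the data. Of 195 values of the 10 genes 180 kept their direction, 15 turned, and 0 passed an adjusted p under 0.05. Not all of these values could turn. The intensity trend, the other filters, the methods' t-test and the authors' log2 table leave each fold change as it was. The replicate block repeats the fold changes without PRA transgenic replicate 4, and the slide column block those without PRA transgenic replicate 3. Igf2 ran from 0.27 to 0.53 (adjusted p 0.357 to 1.00) and Igfbp5 from -0.72 to -0.36 (adjusted p 0.256 to 0.980), each in its own direction throughout. The turned values were those of Igf1 by the median over its probes (-0.088) and in Cy5 alone (-0.069), of Igf1r by the median (-0.13), with array weights (-0.011) and with quantile normalization (-0.045), and of Igfbp4 with array weights (-0.0026). The cause was not tested. Leaving out 1 array gave -0.15 to 0.24 for Igf1 (turned without PRA transgenic replicate 1 or wild-type replicate 3), -0.019 to 0.13 for Igf1r (without PRA transgenic replicate 4), -0.22 to 0.41 for Igfbp4 (without PRA transgenic replicate 4 or wild-type replicate 3), -0.54 to 0.13 for Igfbp6 (without wild-type replicate 1) and -0.12 to 0.32 for Igfbp7 (without wild-type replicate 3).

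The single gene past an unadjusted p of 0.05 and 1.5-fold, Igfbp5, was lost (0 genes) in Cy5 alone, with quantile normalization, with the slide column as a block, and when leaving out 1 array (range 0 to 1). Genes whose genotypes did not overlap numbered 0 in Cy5 alone, and 2 to 3 when leaving out 1 array. Leaving out an array cannot make separate genotypes overlap, so that count could only stay or rise. Over all probes, 1552 passed the same threshold, with 468 when both channels had to be well above background on all arrays, 3367 with no filter, 326 with normexp and loess, 996 by the methods' t-test, and 1382 to 2333 when leaving out 1 array, the highest without PRA transgenic replicate 4. The median over probes has no test, so it gave no such counts, and the tests and covariates do not alter overlap. Quantile normalization, and normexp with loess, do alter the values, and overlap was not counted under them.

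With the replicate number as a block, which drops PRA transgenic replicate 4, 2443 probes passed, Igf1r turned to -0.019 and Igfbp4 to -0.082, and Igfbp5 was -0.62 (adjusted p = 0.470). Same-numbered arrays deviated together with correlations of 0.101, -0.297 and 0.0365. So few correlations cannot decide whether the numbers pair the samples, and the main fit used no pairing.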
